A study of Oryza sativa with 12 samples.

Results

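BURP16 and BURP17 are rice genes of the BURP domain family, and their signal was followed over all 6 groups and each of 12 Affymetrix rice arrays. They were chosen by name from earlier measured values of these same arrays, so their levels and differences are given as a description and carry no p-value. Each gene was represented by 1 probe set (a group of short probes that together report a transcript), so they are 2 of 17905 genes named by a probe set and 2 of 57258 rice probe sets. The reference gene table places BURP16 on chromosome 10 (also called WGP1) and BURP17 on chromosome 11 (also called RDB1). It names 9 BURP genes, of which 7 had a probe set (8 probe sets in all), while BURP4 and BURP14 had none.

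The samples came from the F1 hybrid between the cultivars C bao and Jamaica, from C bao and from Jamaica, and the series concerns weakness of the hybrid. Leaves were taken at 4 weeks and roots at 7 days, so tissue and age cannot be told apart. The 3 genotypes and 2 tissues made 6 groups of 2 arrays, and this number limits the precision of every value. Whether the replicates were separate plants is not stated in the labels, so p-values measure only the spread between these samples, which may be technical. The 6 leaf marker genes averaged 13.88 to 15.11 on the log2 scale on leaf arrays and 8.82 to 10.94 on root arrays. The 7 root marker genes averaged 7.28 to 8.03 on leaf arrays and 11.25 to 12.09 on root arrays.

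BURP proteins occur in plants and take their name from BNM2 of rapeseed, USP of field bean, RD22 of Arabidopsis and the beta subunit of tomato polygalacturonase 1. They share a C-terminal domain with conserved cysteine and histidine residues, and many are secreted into the cell wall. Arabidopsis RD22 is a classical gene of the drought and abscisic acid response, and the tomato beta subunit acts on pectin breakdown in ripening fruit. Rice BURP16 resembles that beta subunit, and rice plants made to overproduce it had less pectin and weaker adhesion between cells. Rice BURP13, also called RAFTIN1, is known from the tapetum of the anther, where it is needed for pollen development.

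BURP16 was a leaf signal and was highest in F1 leaves. The MAS5 signal (a linear intensity per probe set) was 2316.0 and 2846.8 on the F1 leaf arrays, 320.4 and 321.6 on the C bao leaf arrays and 712.1 and 290.1 on the Jamaica leaf arrays. The F1 leaf arrays were both higher than any of the 4 parental leaf arrays, whereas the C bao values fell inside the range of the Jamaica pair. Mean signal was 2581 ± 375 in F1 leaves, 321 ± 0.849 in C bao leaves and 501 ± 298 in Jamaica leaves (SD, n = 2 each). As a ratio of mean signals, F1 leaves had 8.04 times the C bao signal and 5.15 times the Jamaica signal.

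On log2(signal + 16), the scale of all differences below, F1 leaves exceeded the mean of both parental values (the mid-parent) by 2.70 for BURP16 (limma SE 0.497). The F1 leaf arrays reached 563% and 693% of the linear mid-parent signal of 411. C bao leaves minus Jamaica leaves gave -0.49 (SE 0.574), and this parental difference depended on single Jamaica arrays. It was -1.11 without Jamaica leaf replicate 2 and 0.14 without Jamaica leaf replicate 1. The log2 gap between replicates was 0.30 for BURP16 in F1 leaves, where the median of all tested probe sets was 0.50, and 1.25 in Jamaica leaves, where 86.99% of tested probe sets had a smaller gap.

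In roots BURP16 was at the edge of detection. The signal threshold used for filtering was 32.2, the mean over arrays of the 40th percentile. BURP16 gave 3.8 and 11.6 in F1 roots, 53.0 and 11.4 in C bao roots and 11.7 and 52.3 in Jamaica roots. The F1 arrays were both under the threshold, and each parent had 1 of 2 arrays above it. F1 roots minus mid-parent was -0.90 (SE 0.497), a difference between values with no reliable order. The F1 leaf signal was at least 79.8-fold higher than in F1 roots, a bound computed against the threshold. By the same bound, leaves were at least 7.77-fold higher than roots in C bao and at least 11.1-fold higher in Jamaica.

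**Figure D1:**
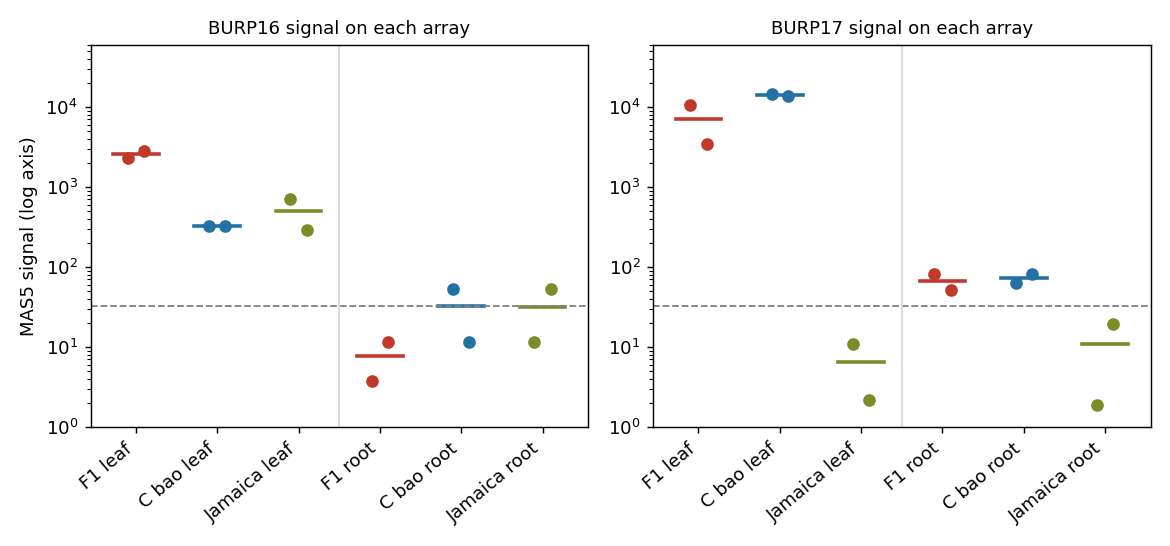
MAS5 signal (log axis) of BURP16 (left) and BURP17 (right) on each of the 12 arrays, with F1 in red, C bao in blue and Jamaica in olive. Dots are arrays, bars are group means and the dashed line is the threshold of 32.2. The F1 leaf arrays of BURP16 (2316.0 and 2846.8) stand above every parental leaf array, and BURP17 is under the threshold on all 4 Jamaica arrays.

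BURP17 was high in C bao leaves and under the threshold in Jamaica. Its signal was 10576.0 and 3478.0 in F1 leaves, 14379.6 and 13726.4 in C bao leaves, and 10.8 and 2.2 in Jamaica leaves. The groups did not overlap, and both F1 leaf arrays lay between the parents. Mean signal was 7027 ± 5019 in F1 leaves, 14053 ± 462 in C bao leaves and 6.5 ± 6.08 in Jamaica leaves (SD, n = 2 each). In signal, C bao leaves were at least 437-fold higher than Jamaica leaves, and F1 leaves at least 189-fold higher, since Jamaica gave no value above the threshold. Whether the probes match the Jamaica sequence was not tested for this or any other BURP gene, so differences between cultivars are differences in probe signal. F1 leaves had 0.432 of the C bao signal as a ratio of geometric means.

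The place of F1 leaves between the parents depended on the scale for BURP17. Linear signal in F1 leaves was 0.9996 of the linear mid-parent of 7029, and the 2 arrays reached 150% and 49.5% of it. On the log2 scale F1 leaves exceeded the mid-parent by 3.45 (SE 0.437), since the log2 mid-parent lies far below the linear one when the parents differ this much. The log2 difference was 2.65 without F1 leaf replicate 1 and 4.25 without F1 leaf replicate 2. The gap between the F1 leaf replicates was 1.60, and 91.4% of tested probe sets had a smaller gap there. The distance of F1 leaves from C bao leaves was -1.21 (SE 0.505), smaller in size than that gap. C bao leaves minus Jamaica leaves was 9.31 (SE 0.505).

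In roots BURP17 was far lower, and the parents kept their order. It gave 82.5 and 52.2 in F1 roots, 62.4 and 82.0 in C bao roots and 1.9 and 19.6 in Jamaica roots. F1 and C bao arrays overlapped and were all above the threshold, while both Jamaica arrays were below it. F1 roots were at least 2.04-fold and C bao roots at least 2.22-fold higher than Jamaica roots. C bao roots minus Jamaica roots was 1.80 (SE 0.505), and F1 roots minus mid-parent was 0.80 (SE 0.437). Leaf markers also differed between these roots: they averaged 10.71 and 10.94 on the C bao root arrays and 9.40 and 9.29 on the Jamaica root arrays. Of the 6, 3 were called higher in C bao in the main fit, against 2.39% of all tested probe sets there. The count was 5 with each tissue fitted alone, and it rose without either F1 root array. The share of all probe sets called in each of those fits is not given here, so these changes are not read as results about the markers. Leaf markers averaged 8.82 and 9.53 on the F1 root arrays, where BURP17 overlapped C bao roots. Their part in the BURP17 root values was not tested. The leaf to root ratio was 92.4 in F1 and 196 in C bao, as ratios of geometric means, while in Jamaica both tissues were below the threshold.

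The order of levels differed between the genes. For BURP16 it was F1 leaf, then Jamaica leaf and C bao leaf with overlapping arrays, then the 3 root groups, whose means were all below the threshold. For BURP17 it was C bao leaf, F1 leaf, then C bao root and F1 root with overlapping arrays, then Jamaica root and Jamaica leaf, which overlapped below the threshold. Leaf minus root of the F1 effect was 3.59 (SE 0.703) for BURP16 and 2.65 (SE 0.619) for BURP17, neither of them tested. RNA was taken from whole tissue, so fewer cells of a type and less RNA per cell cannot be told apart.

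Markers of dividing cells also differed between the leaf arrays. The mean log2 value of 17 such genes (cyclins, B-type cyclin-dependent kinases, MCM proteins, PCNA) was 9.13 and 6.18 on the F1 leaf arrays, 8.74 and 9.07 on the C bao leaf arrays and 5.97 and 6.84 on the Jamaica leaf arrays. The higher F1 value belonged to replicate 1, the array with the higher BURP17 signal, and BURP16 was slightly lower on that array. The log2 gap of BURP17 between the C bao leaf replicates was only 0.07, and both Jamaica leaf values were below the threshold. The order of BURP17 within these 2 pairs was therefore not read. Genes at or below the threshold numbered 1 and 8 in F1 leaves, 1 and 1 in C bao leaves, and 9 and 1 in Jamaica leaves. In roots the marker mean was 9.47 to 9.48 in F1, 8.80 to 9.13 in C bao and 8.94 to 9.36 in Jamaica, where BURP17 was at most 82.5 on any array. F1 leaf replicate 2 had a marker mean near those of the Jamaica leaf arrays and a BURP17 signal of 3478.0, against at most 10.8 in Jamaica leaves. The part of dividing cells in the BURP17 values was not tested.

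**Figure D2:**
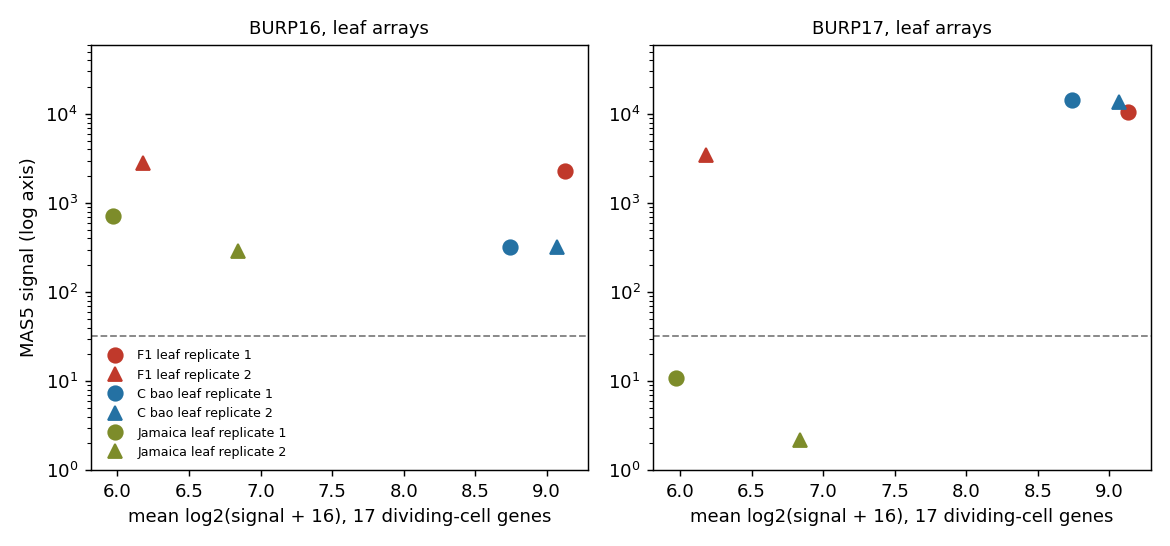
MAS5 signal (log axis) of BURP16 (left) and BURP17 (right) on the 6 leaf arrays against the mean log2(signal + 16) of 17 dividing-cell genes on the same array, with F1 in red, C bao in blue and Jamaica in olive. Circles are replicate 1, triangles replicate 2, and the dashed line is the threshold of 32.2. F1 leaf replicate 2 has a marker mean of 6.18 with 3478.0 for BURP17, and both F1 arrays are highest for BURP16 at marker means of 9.13 and 6.18.

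The other 5 BURP genes, with 6 probe sets, were read in the same way, and 5 of these probe sets passed the filter. Against the mid-parent in F1 leaves, limma with Benjamini-Hochberg adjustment over all 42974 tested probe sets called 0 of 5 (1 at an unadjusted p under 0.05, lowest adjusted p 0.356). The background was 0.982% of probe sets higher and 0.233% lower. In F1 roots it called 2 higher, both of BURP2, against a background of 3.37% higher and 1.69% lower. Between C bao and Jamaica leaves it called 1 higher and 2 lower, the latter both of BURP2, against 7.46% and 4.39% of all tested probe sets. Between C bao and Jamaica roots it called 1 lower, against 2.39% higher and 2.31% lower overall.

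Calls of an F1 effect that differed between leaf and root made up 1.11% of all tested probe sets. Among the 5 BURP probe sets 2 had one, both of BURP2. Counted by gene, that is 1 of 4. F1 beyond both parents was called for 0 of 5 in leaves (0 at an unadjusted p under 0.05 and 0.00233% of all tested) and for 0 of 5 in roots (2 at an unadjusted p under 0.05 and 1.08% of all tested). Against single parents, 1 of 5 was called for F1 leaf against C bao leaf (1.15% overall) and 2 of 5 against Jamaica leaf (5.22%). In roots the counts were 2 of 5 for F1 against C bao, both of BURP2 (5.58%), and 1 of 5 against Jamaica (4.81%). Leaf differed from root for 3 of 5 in F1, for 1 of 5 in C bao and for 2 of 5 in Jamaica. Over all tested probe sets 29.8%, 30.0% and 35.1% were called. Those in F1 included both probe sets of BURP2.

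**Figure D3:**
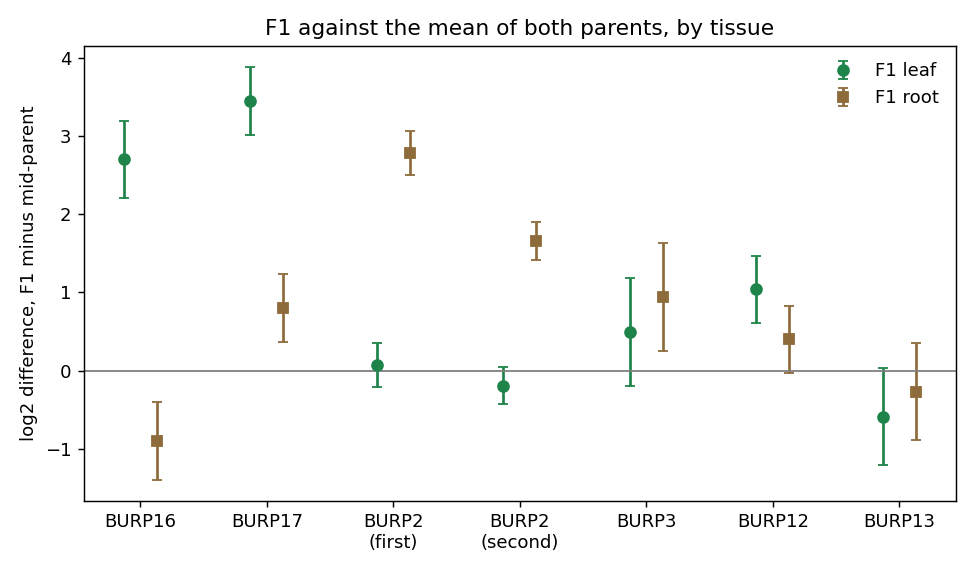
Log2 difference of F1 minus the mean of both parents (vertical axis) for 7 BURP probe sets that passed the filter, with green circles for leaf and brown squares for root. Error bars are limma standard errors from 2 arrays per group. BURP16 lies at 2.70 in leaf and -0.90 in root, BURP17 at 3.45 and 0.80, and the first BURP2 probe set at 0.07 and 2.78.

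BURP2 had the opposite tissue pattern to BURP16 in the hybrid, with an F1 rise in roots. Of its 2 probe sets, the first (with the suffix _a_at) gave 22045.6 and 22528.6 in F1 roots, 1311.2 and 540.0 in C bao roots and 14372.2 and 10455.4 in Jamaica roots. The F1 root arrays were both higher than any of the 4 parental ones. F1 roots exceeded the mid-parent by 2.78 (SE 0.281, limma adjusted p = 0.000331). The difference from Jamaica roots alone was 0.86 (limma adjusted p = 0.198), so F1 roots were not called beyond both parents (limma adjusted p = 0.493).

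In leaves the same BURP2 probe set gave 4486.4 and 4467.5 in F1, 913.1 and 990.9 in C bao, with 16972.1 and 21273.5 in Jamaica. F1 leaves lay between the parents, 0.07 from the log2 mid-parent (SE 0.281, limma adjusted p = 0.95). As for BURP17, this place depends on the scale. In linear mean signal F1 leaves (4477) were nearer to C bao leaves (952) than to Jamaica leaves (19123). C bao was lower than Jamaica by a log2 difference of -4.30 in leaves and -3.84 in roots (SE 0.325 each, limma adjusted p = 1.68e-05 and 4.25e-05). This is the reverse of the parental order of BURP17, whose higher parent was C bao. The leaf minus root F1 effect of BURP2 was -2.71 (SE 0.398, limma adjusted p = 0.0117). That call was lost without F1 root replicate 1 (adjusted p = 0.0864), without F1 root replicate 2 (0.0783) and with moderation without a trend (0.0502).

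The second BURP2 probe set, whose suffix _x_at marks probes that may match other transcripts, moved in the same direction in F1 roots at a lower signal. It gave 1869.4 and 2177.1 in F1 roots, 466.8 and 548.6 in C bao roots and 817.6 and 736.1 in Jamaica roots. The F1 root arrays were above every parental one, with a difference from the mid-parent of 1.66 (SE 0.242, limma adjusted p = 0.00275). That call was lost without F1 root replicate 2. F1 roots were called against C bao roots and against Jamaica roots (limma adjusted p = 0.00251 and 0.0182). Beyond both parents the limma adjusted p was 0.0509, just over the cut-off of 0.05. In leaves it gave 599.9 and 657.9 in F1, 374.9 and 424.7 in C bao, with 919.8 and 1798.1 in Jamaica. C bao leaves were lower than Jamaica leaves by -1.65 (limma adjusted p = 0.00423, 0.0659 with each tissue fitted alone). In roots C bao minus Jamaica was -0.60 for this probe set, with the sign of the first (limma adjusted p = 0.323, 0.0448 with each tissue fitted alone). Its leaf minus root F1 effect of -1.85 (limma adjusted p = 0.0323) stayed under 0.05 in 11 of 20 alternatives.

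BURP3, like BURP16 and BURP17, was a leaf signal. It gave 2764.1 and 2198.5 in F1 leaves, 3486.3 and 2089.5 in C bao leaves and 369.6 and 3436.3 in Jamaica leaves. The groups overlapped, and F1 leaves minus mid-parent was 0.49 (limma adjusted p = 0.827). Root signals were 67.3 and 28.7 in F1, 8.0 and 2.4 in C bao, with 47.6 and 20.1 in Jamaica. Leaf exceeded root by 5.35 in F1, 7.01 in C bao and 4.59 in Jamaica (SE 0.795 each, limma adjusted p = 0.000514, 6.8e-05 and 0.00108). The parental difference in leaves, 1.23 (limma adjusted p = 0.361), was called only without Jamaica leaf replicate 2 (0.00795).

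BURP12 shared with BURP17 the low value in Jamaica leaves. It gave 206.4 and 51.6 in F1 leaves, 180.1 and 140.2 in C bao leaves and 2.5 and 6.5 in Jamaica leaves. Both Jamaica arrays were under the threshold and below the other 4 leaf arrays, and F1 replicate 1 was again the higher of its pair. C bao leaves exceeded Jamaica leaves by 3.10 (SE 0.498, limma adjusted p = 0.00321, 0.0634 with each tissue fitted alone). In roots it gave 203.2 and 194.1 in F1, 152.4 and 146.7 in C bao, with 164.6 and 126.7 in Jamaica, with C bao minus Jamaica at 0.04 (limma adjusted p = 0.984). The low value of BURP12 in Jamaica was thus measured in leaves and not in roots, while BURP17 was below the threshold in both Jamaica tissues. F1 leaves minus mid-parent was 1.04 (limma adjusted p = 0.356, 0.0205 without F1 leaf replicate 2).

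BURP13 (RAFTIN1) and BURP10 were near or below the threshold. BURP13 ranged from 2.5 to 54.1 over the 12 arrays and was called in none of these comparisons. BURP10 ranged from 2.9 to 18.6, did not pass the filter and was not tested. The 6 anther and tapetum genes, RAFTIN1 among them, averaged 5.26 to 6.12 on the log2 scale on every array, with the threshold at 5.59. Of the 4 tested, 0 were called against the mid-parent, between the parents or for the leaf minus root F1 effect. Over all tested probe sets the shares called were 0.233% to 7.46% per direction, and 1.11% for the leaf minus root F1 effect. With shares this low, 0 of 4 is not read as a result about these genes.

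**Figure D4:**
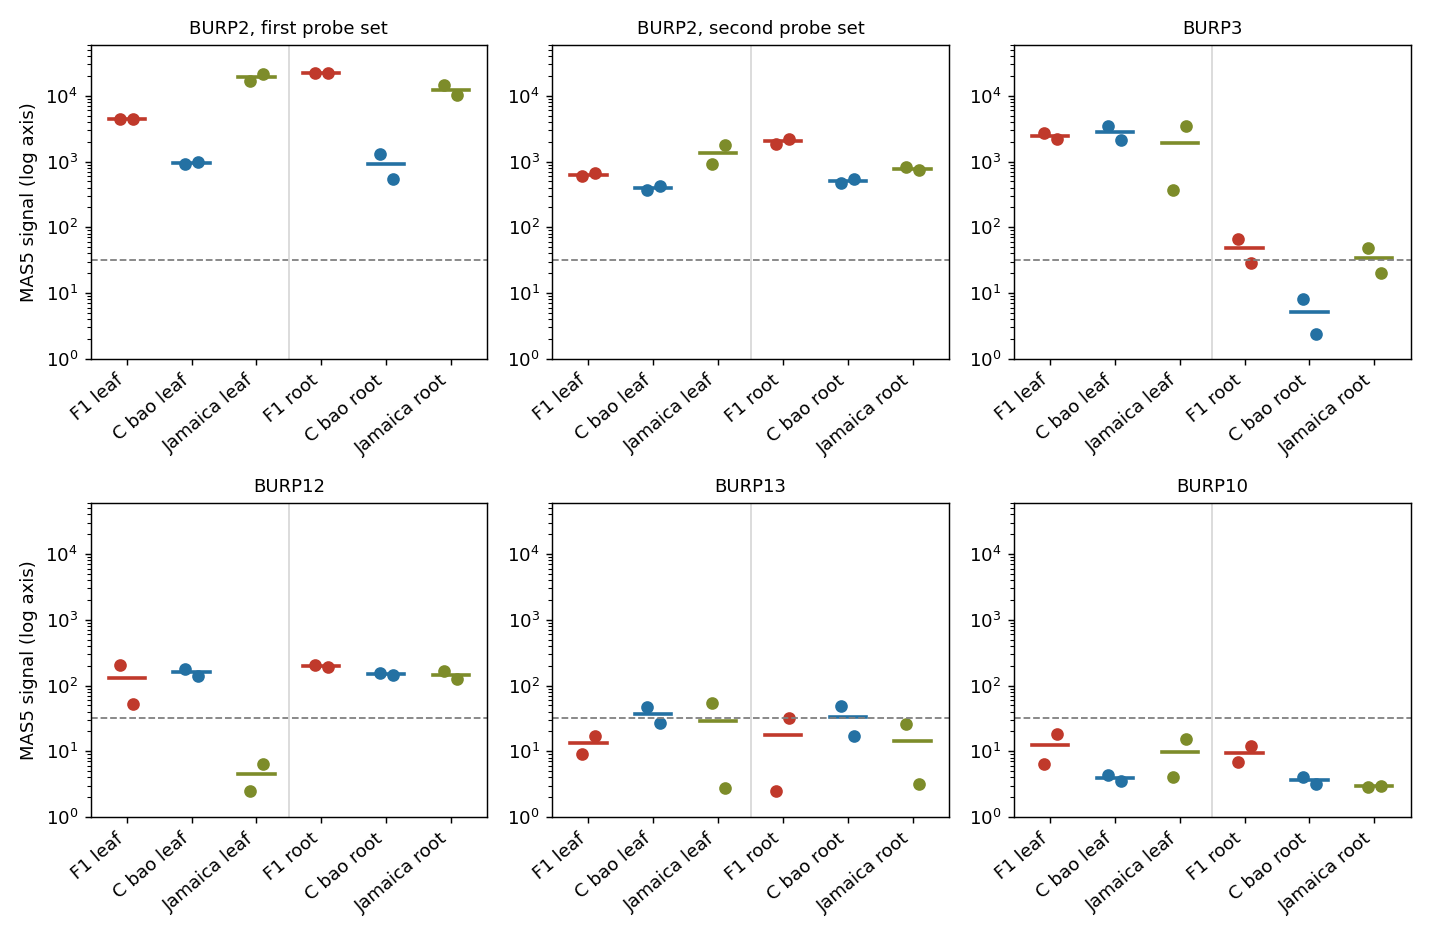
MAS5 signal (log axis) of the 6 probe sets of the other BURP genes on each array, with F1 in red, C bao in blue and Jamaica in olive. Dots are arrays, bars are group means and the dashed line is the threshold of 32.2. BURP2 is highest in F1 roots (22045.6 and 22528.6 on the first probe set), BURP3 is high in leaves only, and BURP12 is under the threshold only in Jamaica leaves.

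Genes of pectin were represented by 3 named genes, all of them inhibitors: FOR1, a polygalacturonase inhibitor, and the pectin methylesterase inhibitors PMEI8 and PMEI28. None of the 3 was called against the mid-parent or between the parents. Against the mid-parent, 0.982% of all tested probe sets were called higher and 0.233% lower in F1 leaves, and 3.37% and 1.69% in F1 roots. Between the parents the shares were 7.46% and 4.39% in leaves and 2.39% and 2.31% in roots. Median differences of the 3 were 0.00 in F1 leaves and 1.13 in F1 roots, where all tested probe sets had medians of -0.02 and 0.12. The leaf median was -0.77 without Jamaica leaf replicate 1, 0.80 without Jamaica leaf replicate 2, 0.74 without F1 leaf replicate 2, -0.15 without F1 leaf replicate 1, 0.39 without C bao leaf replicate 1 and -0.23 without C bao leaf replicate 2. Calls of these genes between parental leaves and in F1 roots changed when single leaf arrays were left out. In F1 roots 2 of the 3 were called higher with each tissue fitted alone, and 1 with a pseudocount of 64. The shares of all probe sets called in these settings are not given here. FOR1 gave 4263.7 and 371.6 in F1 leaves, 3738.3 and 3492.9 in C bao leaves and 261.6 and 1315.4 in Jamaica leaves. Its F1 replicates split in the same direction as those of BURP17, and C bao minus Jamaica was 2.58 (SE 0.919, limma adjusted p = 0.0974).

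Cell wall genes of the expansin, cellulose synthase and cellulose synthase-like families were higher in C bao leaves than in Jamaica leaves for 14 of 55 tested members and lower for 0, with a median of 1.26 against -0.01 for all tested probe sets, of which 7.46% were called higher and 4.39% lower. The largest were EXP5 (4.63), EXPB17 (4.28) and EXP7 (4.17), all expansins, which loosen walls (limma adjusted p = 0.00937, 0.0204 and 0.00421). EXP7 gave 2629.0 and 341.0 in F1 leaves, 3808.0 and 1751.1 in C bao leaves and 104.8 and 157.3 in Jamaica leaves. The F1 replicates of EXP7 lay apart in the same direction as those of BURP17. The count of 14 fell without either C bao leaf array, without Jamaica leaf replicate 1 and without either F1 root array. It rose without Jamaica leaf replicate 2 and without either F1 leaf array. It was 8 without a trend and 0 with each tissue fitted alone. The shares of all probe sets called in these settings are not given here. For dividing-cell genes the same comparison, with the same shares of 7.46% and 4.39%, called 5 of 16 higher and 0 lower (median 2.83). That count rose without either F1 leaf array. It fell without either C bao leaf array, Jamaica leaf replicate 1 or any 1 root array, and was 0 with each tissue fitted alone. Here too the shares of all probe sets called in these settings are not given.

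Against the mid-parent in F1 leaves, where BURP16 was high, 0 of 55 wall genes and 0 of 16 dividing-cell genes were called, with 0.982% of all tested probe sets called higher and 0.233% lower. These counts changed when a leaf array was left out. Genes of both lists were called lower without F1 leaf replicate 1 and higher without F1 leaf replicate 2. Wall genes were also called higher without Jamaica leaf replicate 2. The share of all probe sets called in each of these fits is not given here, so the changes are not read as results about these genes. The BURP16 difference from the mid-parent in F1 leaves was 2.84 without F1 leaf replicate 1 and 2.55 without F1 leaf replicate 2, and 2.38 to 3.01 over leaving out any 1 array. In F1 roots 3 wall genes were called higher and 1 lower (fewer without either F1 root array), and 0 dividing-cell genes. Over all tested probe sets, 3.37% were called higher and 1.69% lower there, near the shares of the wall genes.

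Abscisic acid and dehydration genes were set beside the BURP genes because Arabidopsis RD22 belongs to that response. In F1 roots 6 of 11 were higher than the mid-parent and 0 lower, against 3.37% and 1.69% of all tested probe sets, with a median of 5.72. Those called included the dehydrins RAB21, RAB16B and RAB16C. BURP16 was under the threshold on the F1 root arrays, and BURP17 gave 82.5 and 52.2 there. BURP2 was the BURP gene called higher in the same roots. In F1 leaves 0 of the 11 were called, with a median of 1.02, against 0.982% of all tested probe sets called higher and 0.233% lower. Without F1 leaf replicate 1 the median was 1.81, and the count of calls depended on that array. Without F1 leaf replicate 2 the median was -0.03. The mean log2 value of the 11 genes was 8.94 and 11.53 on the F1 leaf arrays, 9.07 and 8.27 on the C bao leaf arrays and 8.58 and 9.50 on the Jamaica leaf arrays. BURP16 was high on both F1 leaf arrays (2316.0 and 2846.8), whereas the dehydration mean was above every parental leaf array on 1 of them. The part of these genes in the BURP16 values was not tested.

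Among 3042 eligible probe sets of 2385 named genes, the profile most like BURP16 over the 12 arrays was that of PRR95, a pseudo-response regulator of the circadian clock (Pearson r = 0.957 on the log2 scale). PRR95 gave 5780.8 and 9285.5 in F1 leaves, 4493.6 and 5498.8 in C bao leaves and 5210.1 and 2832.8 in Jamaica leaves, and 982.6 to 1508.0 in roots. Its F1 leaf values were above all parental leaf values, by far less than those of BURP16. The next were OsC3H16 (0.949), Anp32 (0.945), FLO6 (0.944) and CDKG-2 (0.937). The points share arrays and a leaf to root contrast, and the correlations are a description.

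For BURP17 the most similar profiles were those of AT1 (r = 0.951), the T-type cyclin CYCT1-1 (0.950), CRK10 (0.947), the lipid transfer protein LTPL1 (0.940) and the auxin response repressor IAA14 (0.939). CYCT1-1 moved far less than BURP17, from 2372.1 to 3268.6 over the 12 arrays. IAA14 gave 1215.6 and 171.1 in F1 leaves, 914.4 and 836.5 in C bao leaves and 28.4 and 16.4 in Jamaica leaves. It therefore shared the low Jamaica leaf values and the split F1 pair. Unlike BURP17, IAA14 was not lower in Jamaica roots (60.3 and 98.0) than in C bao roots (63.7 and 69.9), and for CYCT1-1 the parental root arrays overlapped. As for BURP17, both Jamaica root arrays were below both C bao root arrays for LTPL1, CRK10 and AT1. LTPL1 gave 5170.0 and 4568.8 in C bao roots and 1757.6 and 2592.5 in Jamaica roots. CRK10 and AT1 were below the threshold in these roots. CRK10 gave 150.6 and 224.6 in F1 leaves, 293.8 and 427.1 in C bao leaves and 14.9 and 7.2 in Jamaica leaves. CRK10 was low in Jamaica leaves as well, but its F1 pair was ordered the other way.

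The nearest protein-coding genes with a probe set, 3 on each side, were read to see whether they shared the pattern of their neighbour. Around BURP16 the F1 leaf differences from the mid-parent ran from -0.44 to 0.31 over 6 genes, and none was near the 2.70 of BURP16. Around BURP17, 5 of 6 genes passed the filter. LOC4349889, 5 genes away, gave 447.4 and 65.8 in F1 leaves, 434.3 and 299.2 in C bao leaves and 3.4 and 16.4 in Jamaica leaves. Its C bao minus Jamaica difference was 3.91 in leaves and -0.19 in roots, so it was low in Jamaica leaves but, unlike BURP17, not in Jamaica roots. The other 4 lay between -0.88 and 0.57 in leaves. In roots ALDP, 3 genes away, had a C bao minus Jamaica difference of 1.83, beside 1.80 for BURP17. It gave 1297.9 and 1357.9 in C bao roots and 414.5 and 315.1 in Jamaica roots. In leaves its difference was -0.88, opposite in sign to the 9.31 of BURP17. ALDP was read by an _x_at probe set and was far higher in leaves, at 15542.4 to 34700.4. The leaf markers had a median C bao minus Jamaica difference of 1.44 in roots, and their part in the ALDP value was not tested. The other 3 neighbours of BURP17 lay between -0.47 and 0.08 in roots. Gene order was taken from the reference assembly and may differ in these cultivars.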

How the data were processed

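The deposited table held intensity values on a linear scale, which the authors made with MAS5 (per the submitters' processing notes). Trimmed means were 500.06 to 500.08 on every array. The sources used here give neither detection calls nor software versions. After each array was scaled to exactly 500, 16 was added to the signals before log2. Probe sets stayed in the test when the mean of at least 1 of the 6 groups was over log2 5.59 (signal 32.2), which left 42974 of 57258 (75.05%). BURP16 passed through leaf groups only, and BURP17 passed through the leaf and root groups of F1 and C bao. Of the 6 other BURP probe sets, 5 passed. A limma model (version 3.58.1, R 4.3.3) gave each of the 6 groups its mean over 12 arrays (empirical Bayes with trend, 6 residual and 4.581 prior degrees of freedom), with Benjamini-Hochberg adjustment at 0.05 over all tested probe sets. The test was checked on simulated data. Tables and figures used Python 3.11.15. A fold against a group whose log2 mean is below the threshold is a lower bound against, per array, the higher of the threshold and the measured signal.

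Names came from the probe annotation and the RefSeq gene table of assembly ASM3414082v1: 22436 of 22531 listed probe sets had 1 gene, and 2451 of 17905 genes had an informative name. The reference table holds symbols without descriptions, so lists rest on symbols. The members and lists were chosen with earlier results of these data known. Named genes are BURP genes, the 5 profiles most like each member, list members called beyond both parents in F1 (at most 3 per list and tissue) and the 3 largest parental differences per list. LOC4349889 and ALDP were singled out after their values were seen. Alternatives were quantile scaling, median centring, pseudocounts of 1 and 64, a filter at the 60th percentile or none, each tissue alone, no trend, a replicate block and leaving out each array. A linear mid-parent was added after seeing the data. Promoter and protein sequences were not analysed here.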

Additional observations from a re-analysis of the deposited data

Results flagged for a closer look

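An F1 effect that differed between leaf and root was called for both BURP2 probe sets, with log2 differences of -2.71 (first probe set) and -1.85 (second) by limma's test of the difference itself. On the log2 scale F1 roots were above the mid-parent and F1 leaves near it. For BURP16 the difference ran the other way at 3.59 and was not tested: both F1 leaf arrays were above all parental leaf arrays, and both F1 root arrays were at 3.8 and 11.6, below the threshold of 32.2, where values have no reliable order.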

How the results depend on the processing

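The replicate block could not move any log2 difference, because every group held both replicate numbers. BURP16 in F1 leaves at 2.70 above the mid-parent and BURP17 between leaf parents at 9.31 were therefore unchanged by construction. Calls could change with the block, but the F1 root count of other BURP probe sets stayed at 2. The block changed no other call among those counts. Same-numbered replicates showed no strong shared shift: over 15 pairs of groups the correlation of same-numbered deviations ran from -0.1683 to 0.0778. Whether same-numbered samples were handled together is not stated in the labels. Values near or below the threshold moved with the pseudocount. At 1, BURP16 gave -1.74 in F1 roots and 4.48 for the leaf minus root F1 effect, and BURP17 gave 11.16 between leaf parents, 3.23 between root parents, 4.37 in F1 leaves and 1.49 in F1 roots. At 64, BURP17 gave 7.65, 0.87 and 2.62 in the first 3 of those BURP17 comparisons. With a linear mid-parent, chosen after seeing the data, BURP17 in F1 leaves was at 0.00. Leaving out each array in turn gave -1.11 to 0.14 for BURP16 between leaf parents. For BURP17 it gave 1.30 to 2.29 between root parents, 2.65 to 4.25 in F1 leaves and 1.85 to 3.45 for the leaf minus root F1 effect. Counts of other BURP probe sets called ran from 0 to 1 in F1 leaves (1 without F1 leaf replicate 2), 1 to 2 in F1 roots (1 without F1 root replicate 2) and 0 to 2 for the leaf minus root F1 effect (0 without either F1 root array). With each tissue alone the parental count was 1 in leaves, against 3, and 2 in roots, against 1, and without a trend the leaf minus root count was 0, against 2. Median centring moved the median of all tested probe sets from 0.12 to -0.15 in F1 roots, and the first BURP2 probe set stayed called there in 21 of 21 alternatives (2.46 to 3.09). The cause of these shifts was not tested. With 2 arrays per group and no detection calls, levels below the threshold are bounds only.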
